A study of Mus musculus with 6 samples.

Results

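The adrenal cortex makes steroids with mitochondrial and microsomal cytochrome P450 enzymes, which leak reactive oxygen species as they work. The genes described here encode enzymes that remove them, together with enzymes that make or use glutathione and stress-response enzymes. The set comprised 52 genes of the 19505 named on the array. Members were taken by gene symbol: the cytosolic, mitochondrial and microsomal glutathione transferases, the glutathione peroxidases, the peroxiredoxins and sulfiredoxin, the thioredoxins and their reductases, the superoxide dismutases, catalase, the enzymes of glutathione synthesis and recycling, and the stress-response genes Nqo1 and Hmox1. Each member had 1 probe set, and the rule on symbols uses no expression value. Prdx5 and Prdx6 had no probe set under those symbols and are not among the members.

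Whole adrenal glands of female mice aged 2 months were hybridised to Affymetrix arrays that probe whole transcripts, with 1 array for each animal. Mutant mice (n = 3) were Mst1flox/flox;Mst2flox/flox;Nr5a1-cre and control mice (n = 3) were Mst1flox/flox;Mst2flox/flox, so both groups carried the floxed alleles and the mutants alone carried Cre. Nr5a1-Cre is active in steroid-producing cells, whereas the glands also hold medulla, capsule, vessels and immune cells. No group with Cre and unfloxed alleles was among the samples, so an effect of Cre itself and of losing the kinases cannot be told apart. Mst1 and Mst2 are the Hippo pathway kinases that restrain the coactivator YAP, and Mst1 is listed on the array as Stk4. The comparison asks how inactivation of these kinases in the cortex altered gland transcripts.

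Glutathione is made from glutamate, cysteine and glycine, is oxidised when peroxidases use it to reduce peroxides, and is regenerated by glutathione reductase. Peroxiredoxins reduce hydrogen peroxide with electrons from thioredoxin, which thioredoxin reductases recharge from NADPH. In the mouse adrenal cortex, mitochondrial peroxiredoxin 3 becomes over-oxidised as corticosterone is made and sulfiredoxin restores it, and inherited loss of the mitochondrial reductase TXNRD2 causes glucocorticoid deficiency in people. Many of these genes are targets of the transcription factor NRF2, which binds antioxidant response elements.

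Signals are log2 units, so a difference of 1 is a doubling of signal, and a signal below 7.32, the highest value of the 23 background probe sets, was not told apart from background. A gene is called within the background range when its group mean lay at or below that value. The 6 arrays had median signals between 6.76 and 6.83. All 7 cortex markers, among them Cyp11a1 and Star, lay between 16.99 and 19.15 in every animal, and all 5 measured kidney markers lay within the background range. The targeted kinase Stk4 measured 8.14, 8.36 and 8.46 in mutants 1 to 3, against 8.32, 8.66 and 8.94 in controls 1 to 3 (log2 change -0.32, standard error [SE] 0.19, limma adjusted p = 0.623). The groups overlapped. Whole glands also hold cells without Cre, and probe positions relative to the deleted exons were not given in the sources used here, so this does not check the genotype. The fat markers, 10 measured genes, averaged 12.71, 10.46 and 9.89 in the mutants, against 8.87, 10.28 and 11.42 in the controls. The liver marker albumin, Alb, stood at 14.70 in mutant 2 and 14.06 in control 2, against 6.63 to 10.98 in the other animals.

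No member differed between mutant and control glands past the test. Of the 52 genes, 0 had a limma adjusted p under 0.05, where 0.0721% of all 22206 probe sets did (16 in all, 0.054% higher in mutants and 0.018% lower). At an unadjusted p under 0.05 there were 9 members, or 17.3%, beside 10.4% of all probe sets. Of these, 3 were higher in mutants (5.77%, beside 5.42% of all probe sets) and 6 were lower (11.5%, beside 4.96%). That split changed with single arrays. Leaving out control 1 gave 4 higher and 2 lower, control 2 gave 3 and 3, and control 3 gave 2 and 4. Leaving out mutant 1 gave 4 higher and 3 lower, mutant 2 gave 2 and 3, and mutant 3 gave 3 and 5. Over all probe sets, the share at such a p was then 7.63% (without control 1) to 11.6% (without control 3). The fat marker mean as a covariate gave 4 of each, whereas both scalings and array weights kept 3 higher and 6 lower. Without mutant 2 the count was 5 of 52, where 9.08% of all probe sets had such a p. Of the 43 members above the background range in at least 1 group, 16.3% had an unadjusted p under 0.05, beside 13.6% of such probe sets. The 3 mutants lay wholly on one side of the 3 controls for 14 members (26.9%, beside 16.4% of all probe sets), 7 of them higher (13.5%, beside 8%) and 7 lower (13.5%, beside 8.36%). Of the 43 members above the background range, 5 were wholly higher (beside 10.7% of such probe sets) and 6 wholly lower (beside 11.8%). Whether the members stand apart from other genes was not tested.

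The median change over the members was close to 0. Their mean signal was 11.77, 11.84 and 11.77 in the mutants and 11.84, 11.82 and 11.77 in the controls, and the median of the 52 log2 changes was -0.02, beside -0.01 over all probe sets. Changes were below 0 for 28 members (53.8%, beside 52% of all probe sets), and for the 43 members above the background range the count was 25 (beside 53.4% of such probe sets). The intervals were narrow enough to bound the change in signal of most members. For 48 of 52 the 95% interval lay within a 2-fold change in either direction, and for 27 within a 1.5-fold change. Both counts include members within the background range, where a narrow interval does not bound a change in transcript. The 4 whose intervals reached past 2-fold were Srxn1, Gsta2, Gstt1 and Gpx6.

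**Figure D1:**
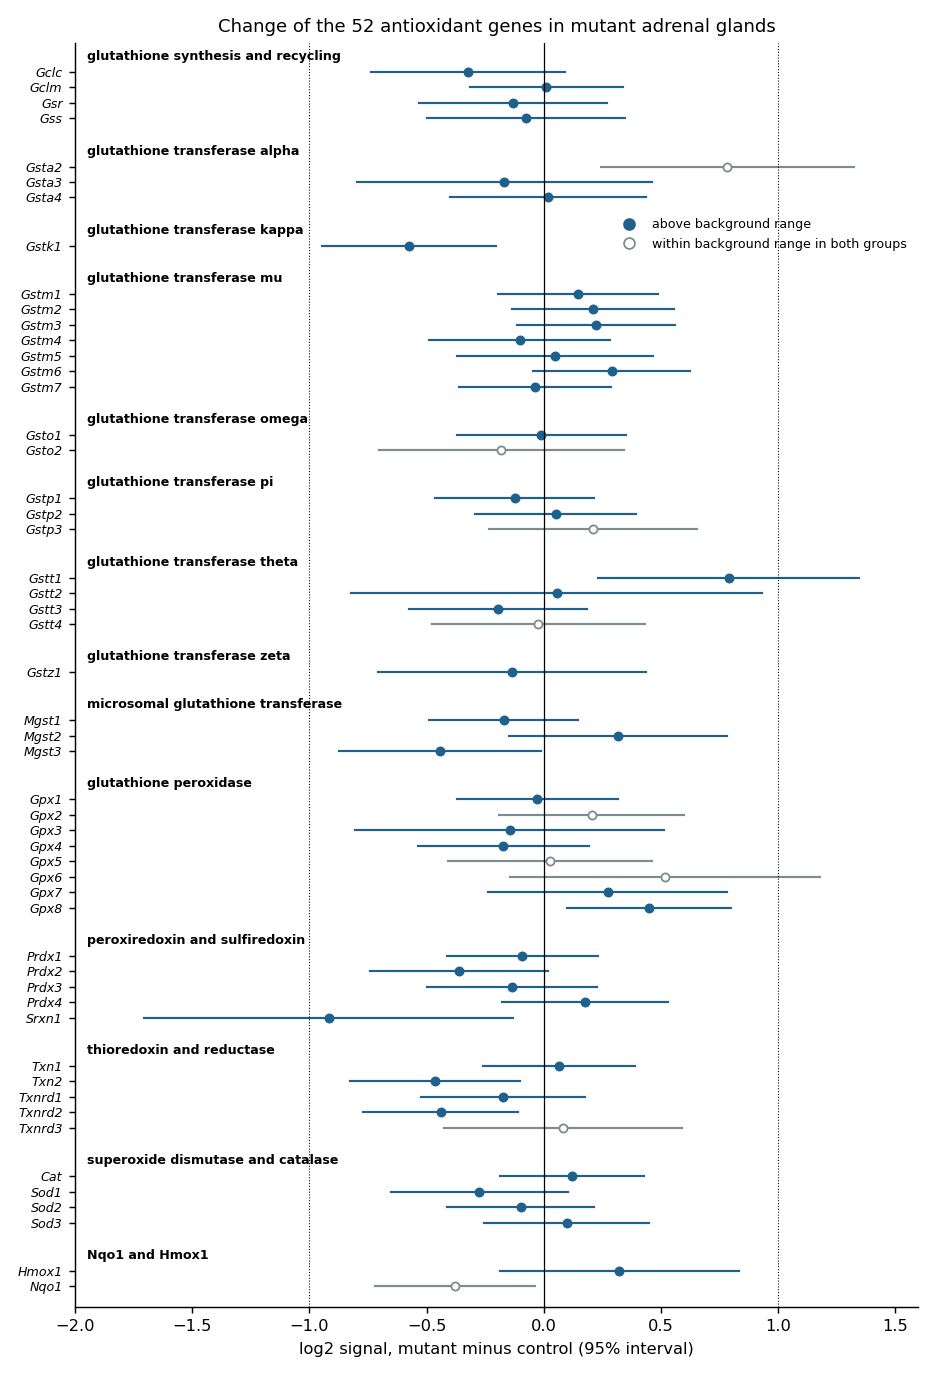
Log2 change, mutant minus control, of each of the 52 antioxidant genes with its 95% interval from limma, grouped by enzyme class (3 animals per group). Open grey symbols mark the 9 genes within the background range in both groups, and dotted lines mark 2-fold changes. Most intervals cross 0, and Srxn1 has the lowest change at -0.92.

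**Figure D2:**
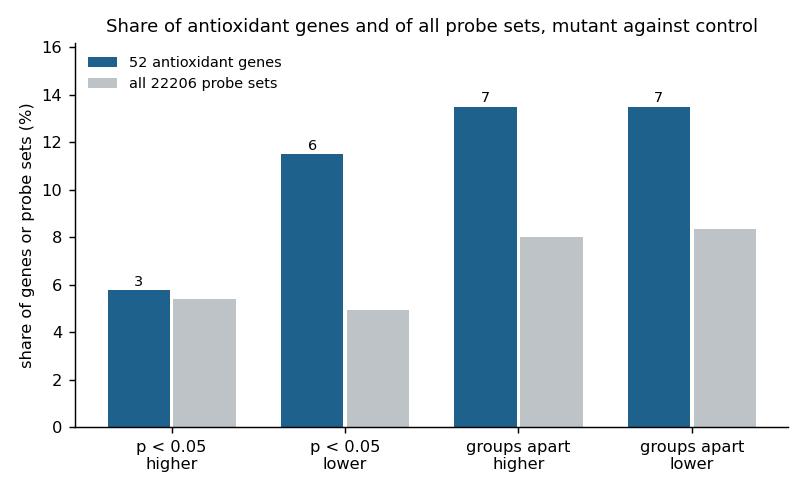
Share in percent of the 52 antioxidant genes (blue, with the number of genes above each bar) and of all 22206 probe sets (grey) that were higher or lower in mutants at an unadjusted p under 0.05, or whose mutant and control animals did not overlap. The bars for genes lower at an unadjusted p under 0.05 stand at 11.5% and 4.96%, a count of 6 genes that was 2 to 5 with any 1 animal left out. Both colours include genes or probe sets within the background range.

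The lowest p of all members belonged to Gstk1, the kappa class transferase, which resides in mitochondria and peroxisomes rather than in the cytosol. It measured 15.23, 15.48 and 15.40 in mutants 1 to 3, against 15.93, 16.16 and 15.76 in controls 1 to 3. All 3 mutants lay below all 3 controls. Group means were 15.37 ± 0.13 in mutants and 15.95 ± 0.20 in controls (SD, n = 3 each), a log2 change of -0.58 (95% interval -0.95 to -0.20, limma adjusted p = 0.287). With a variance trend and a robust prior in limma its adjusted p was 0.0483, and it was then the only member past the threshold; 175 probe sets passed in all under that setting.

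The mitochondrial thioredoxin pair was also lower in every mutant. Txnrd2, the mitochondrial thioredoxin reductase, measured 12.60, 12.64 and 12.67 in the mutants, against 13.21, 13.08 and 12.94 in the controls. Its log2 change was -0.44 (95% interval -0.77 to -0.11, limma adjusted p = 0.351), and the mutants varied little among themselves (SD 0.04, n = 3). Txn2, the thioredoxin that this reductase recharges, measured 14.62, 14.70 and 15.00 in the mutants, against 15.33, 15.18 and 15.20 in the controls. Its log2 change was -0.46 (95% interval -0.83 to -0.10, limma adjusted p = 0.368), with all mutants below all controls.

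Other mitochondrial members had smaller log2 changes, a difference that was not tested. Prdx3, a peroxiredoxin that Txn2 serves, measured 14.88, 14.99 and 15.29 in the mutants and 15.15, 15.23 and 15.18 in the controls (log2 change -0.13, 95% interval -0.50 to 0.23, limma adjusted p = 0.827). Mutant 3 stood above every control, so the groups overlapped. Its change was -0.25 without mutant 3 and -0.048 without mutant 1. Sod2, the manganese superoxide dismutase of the matrix, measured 13.82, 13.69 and 13.75 in the mutants and 13.89, 13.87 and 13.78 in the controls (log2 change -0.10, 95% interval -0.41 to 0.22), with overlapping groups. Gpx4 repairs lipid peroxides in membranes, including those of mitochondria. It measured 14.10, 14.31 and 14.29 in the mutants and 14.44, 14.57 and 14.19 in the controls (log2 change -0.17, 95% interval -0.54 to 0.20). Control 3 lay below mutants 2 and 3, and the change was -0.28 without control 3, -0.086 without control 2 and -0.10 without mutant 1. Mitochondrial members were grouped after their values were seen, so their common direction is a description.

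Beside these values, the list mean of the cortex markers differed by -0.03 log2 units, and 1 of 7, Cyp21a1, was lower in every mutant, at 18.92 to 19.06 against 19.11 to 19.15. Medulla markers were below 0 in 6 of 6 cases, with list means of 14.20, 14.09 and 14.23 in the mutants and 14.40, 15.16 and 14.03 in the controls. Their part in the mitochondrial values was not tested. In whole glands, fewer cells of a type and less RNA per cell cannot be told apart.

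Sulfiredoxin, Srxn1, which reactivates over-oxidised peroxiredoxins, had the lowest log2 change of the 52 members and the least uniform response among mutants. It measured 14.99, 14.80 and 16.23 in mutants 1 to 3, against 16.09, 16.31 and 16.37 in controls 1 to 3. Mutants 1 and 2 lay more than 1 log2 unit below every control, whereas mutant 3 lay among the controls. Means were 15.34 ± 0.78 in mutants and 16.26 ± 0.15 in controls (SD, n = 3 each), a log2 change of -0.92 (95% interval -1.71 to -0.13, limma adjusted p = 0.41). The log2 change was -0.74 without mutant 1 (limma adjusted p = 0.655), -0.65 without mutant 2 (limma adjusted p = 0.635) and -1.36 without mutant 3 (limma adjusted p = 0.0724). The mutant spread, SD 0.78, was the widest of any member in either group.

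The promoters of Gstk1, Txnrd2, Txn2 and Srxn1, 250 bases before to 50 after the gene's start, are shown for sequence context. All 4 had log2 changes below 0, and they were chosen with these values known. Sequences are RefSeq's on GRCm38.p6, read 5′ to 3′ on the gene's strand. Capitals mark matches, on either strand, to the antioxidant response element core TGACNNNGC or its variant TGAGTCAGC, to GGAATG, bound by the TEAD partners of YAP, or to AAGGTCA, bound by NR5A1. Only the core was in the planned search, and the variant was added after the promoters were read. No 2 of the 4 patterns overlap in these windows. A match is a description of the letters and not a site of binding.
Gstk1, chr6:42245685-42245984, plus strand: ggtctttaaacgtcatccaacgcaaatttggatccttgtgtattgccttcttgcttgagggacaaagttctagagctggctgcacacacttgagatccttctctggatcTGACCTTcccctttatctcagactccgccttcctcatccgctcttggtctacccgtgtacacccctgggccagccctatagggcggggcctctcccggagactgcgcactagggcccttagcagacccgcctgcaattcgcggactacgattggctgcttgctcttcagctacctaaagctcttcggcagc
Txnrd2, chr16:18426167-18426466, plus strand: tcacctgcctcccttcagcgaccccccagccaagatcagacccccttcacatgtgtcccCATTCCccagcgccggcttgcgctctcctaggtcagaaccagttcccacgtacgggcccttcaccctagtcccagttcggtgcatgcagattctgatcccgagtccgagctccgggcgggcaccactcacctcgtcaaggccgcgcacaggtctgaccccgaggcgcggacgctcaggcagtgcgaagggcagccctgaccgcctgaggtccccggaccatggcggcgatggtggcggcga
Txn2, chr15:77928945-77929244, minus strand: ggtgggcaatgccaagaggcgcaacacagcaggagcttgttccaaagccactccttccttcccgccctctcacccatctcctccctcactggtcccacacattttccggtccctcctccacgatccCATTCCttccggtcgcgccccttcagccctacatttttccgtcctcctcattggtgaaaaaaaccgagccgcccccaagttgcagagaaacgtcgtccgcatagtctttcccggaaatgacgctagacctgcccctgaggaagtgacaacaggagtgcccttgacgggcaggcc
Srxn1, chr2:152105274-152105573, plus strand: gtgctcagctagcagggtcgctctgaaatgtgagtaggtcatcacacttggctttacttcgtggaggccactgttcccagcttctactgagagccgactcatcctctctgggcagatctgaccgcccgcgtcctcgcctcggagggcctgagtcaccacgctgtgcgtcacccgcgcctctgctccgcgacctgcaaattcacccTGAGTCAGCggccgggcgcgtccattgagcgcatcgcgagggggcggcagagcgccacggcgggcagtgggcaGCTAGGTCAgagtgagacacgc

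Srxn1 alone of these 4 held antioxidant response element letters, the variant at bases -45 to -37 and the core at bases 29 to 37 from the gene's start. Txnrd2 and Txn2 each held a TEAD match, at bases -191 to -186 and -124 to -119, and Gstk1 held an NR5A1 match at bases -141 to -135. Of the 46 members with a promoter window, 9 held the core (19.6%, beside 14% of 27025 genes). The variant was present in 3 (6.52%, beside 0.481%), the TEAD letters in 6 (13%, beside 16.6%) and the NR5A1 letters in 2 (4.35%, beside 5.38%). The variant was added after the promoters were read, and the TEAD and NR5A1 letters were not in the planned search. Their shares are descriptions only. Gstp1 and Gstp2, among the holders of the variant, have the same letters around it.

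The members that hold the core are shown with 10 bases on each side, turned so that the core, in capitals, reads in the same direction, to set their letters beside their log2 changes.
Gclm, chr3:122245413-122245441: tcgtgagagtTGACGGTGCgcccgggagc
Gsta3, chr1:21240454-21240482: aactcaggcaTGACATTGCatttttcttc
Gstm5, chr3:107895802-107895830: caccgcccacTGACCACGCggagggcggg
Gstm7, chr3:107931725-107931753: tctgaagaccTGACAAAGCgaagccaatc
Mgst1, chr6:138140461-138140489: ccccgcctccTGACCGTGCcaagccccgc
Prdx1, chr4:116685456-116685484: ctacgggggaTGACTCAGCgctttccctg
Sod1, chr16:90220696-90220724: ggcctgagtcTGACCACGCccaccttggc
Srxn1, chr2:152105542-152105570: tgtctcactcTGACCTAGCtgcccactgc
Txnrd1, chr10:82859104-82859132: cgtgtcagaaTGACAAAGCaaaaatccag

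Log2 changes of these 9 ranged from -0.92 (Srxn1) to 0.05 (Gstm5), with a median of -0.17 and 7 of 9 below 0. The 37 members whose window lacks the core had a median of -0.01, with 19 of 37 below 0. The difference was not tested. Those 37 include Gstp1 and Gstp2, which hold the variant, and letters outside the window were not searched. The variant windows of Gstp1 and Gstp2 were letter for letter alike, and differed from that of Srxn1 outside the capitals.
Gstp1, chr19:4037968-4037996: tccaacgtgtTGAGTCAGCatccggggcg
Gstp2, chr19:4042292-4042320: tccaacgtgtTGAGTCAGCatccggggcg
Srxn1, chr2:152105469-152105497: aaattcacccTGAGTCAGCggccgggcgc

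Genes of glutathione synthesis and recycling had log2 changes from -0.32 to 0.01. Gclc, the catalytic subunit of the rate-limiting ligase, measured 10.55, 10.87 and 10.83 in the mutants, against 10.92, 10.94 and 11.37 in the controls. Every mutant was below every control, with a log2 change of -0.32 (95% interval -0.74 to 0.09, limma adjusted p = 0.596) that was -0.18 without control 3. Gclm, the modifier subunit of the same ligase, measured 13.17, 13.02 and 13.21 in the mutants and 13.10, 13.21 and 13.04 in the controls, a log2 change of 0.01 (95% interval -0.32 to 0.34) that was -0.02 with arrays shifted to a common median. Glutathione synthetase Gss differed by -0.07 (SE 0.18) and glutathione reductase Gsr by -0.13 (SE 0.18), both with overlapping groups.

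The glutathione transferases, which couple glutathione to electrophiles, held 21 members outside the microsomal family, 11 of them above 0 and 10 below, with a median log2 change of 0.02. Apart from Gstk1, 2 had an unadjusted p under 0.05, both higher in mutants. Over all probe sets, 5.42% were higher and 4.96% lower at such a p. Gstt1, a theta class enzyme, measured 8.69, 9.53 and 8.70 in the mutants, against 8.35, 8.03 and 8.17 in the controls. All mutants were above all controls, mutant 2 by the widest margin, and the log2 change was 0.79 (95% interval 0.23 to 1.35, limma adjusted p = 0.322). Without mutant 2 the change was 0.51.

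Gsta2, an alpha class enzyme, measured 6.91, 6.33 and 6.05 in the mutants, against 5.41, 5.80 and 5.73 in the controls. Its groups did not overlap and its log2 change was 0.78 (95% interval 0.25 to 1.32, limma adjusted p = 0.315), but all 6 values lay within the background range. The other alpha members lay above the background range, with smaller changes. Gsta3, whose human counterpart isomerises steroid intermediates, measured 13.11, 12.70 and 11.98 in the mutants and 12.74, 12.96 and 12.59 in the controls (log2 change -0.17, 95% interval -0.80 to 0.46). Mutants held both the highest and the lowest Gsta3 value, and without mutant 3 the change was 0.14. Gsta4, which clears the lipid peroxidation product 4-hydroxynonenal, measured 12.18, 12.78 and 12.36 in the mutants and 12.48, 12.37 and 12.41 in the controls. Its groups overlapped, and its log2 change was 0.02 (95% interval -0.40 to 0.44), or -0.01 with arrays shifted to a common median.

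Among the 7 mu class genes 5 were above 0, with changes from -0.10 (Gstm4) to 0.29 (Gstm6). Gstm6 measured 9.43, 9.42 and 9.23 in the mutants, against 9.14, 8.94 and 9.12 in the controls (log2 change 0.29, 95% interval -0.04 to 0.63, limma adjusted p = 0.541), and Gstm3 also had its mutants above its controls, with a change of 0.22. Gstm1 measured 17.41, 17.50 and 17.17 in the mutants and 17.25, 17.16 and 17.23 in the controls, with overlapping groups. Its log2 change of 0.15 (95% interval -0.20 to 0.49) was 0.078 without mutant 2 and 0.24 without mutant 3. The mu, alpha and pi genes are families of close copies, and probes shared between copies could mix their signals, which was not tested. Of the pi class, Gstp1 and Gstp2 had changes of -0.12 and 0.05 (SE 0.15 each), and Gstp3 lay within the background range. Omega and zeta class changes ranged from -0.18 (Gsto2, within the background range) to -0.01 (Gsto1), and the remaining theta genes Gstt2, Gstt3 and Gstt4 from -0.19 to 0.05.

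Microsomal transferases sit in membranes, and their changes had both signs. Mgst3 measured 10.86, 11.42 and 11.16 in the mutants, against 11.60, 11.77 and 11.40 in the controls (log2 change -0.44, 95% interval -0.88 to -0.01, limma adjusted p = 0.47). Mutant 2 was just above control 3, so the groups overlapped, and the change was -0.30 without mutant 1. Mgst1 measured 17.85, 17.97 and 17.88 in the mutants, against 18.14, 18.10 and 17.98 in the controls. The groups were apart but close, with a log2 change of -0.17 (95% interval -0.49 to 0.15). Saturation of bright probe sets was not assessed. Mgst2 differed by 0.32 (SE 0.20), with overlapping groups.

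**Figure D3:**
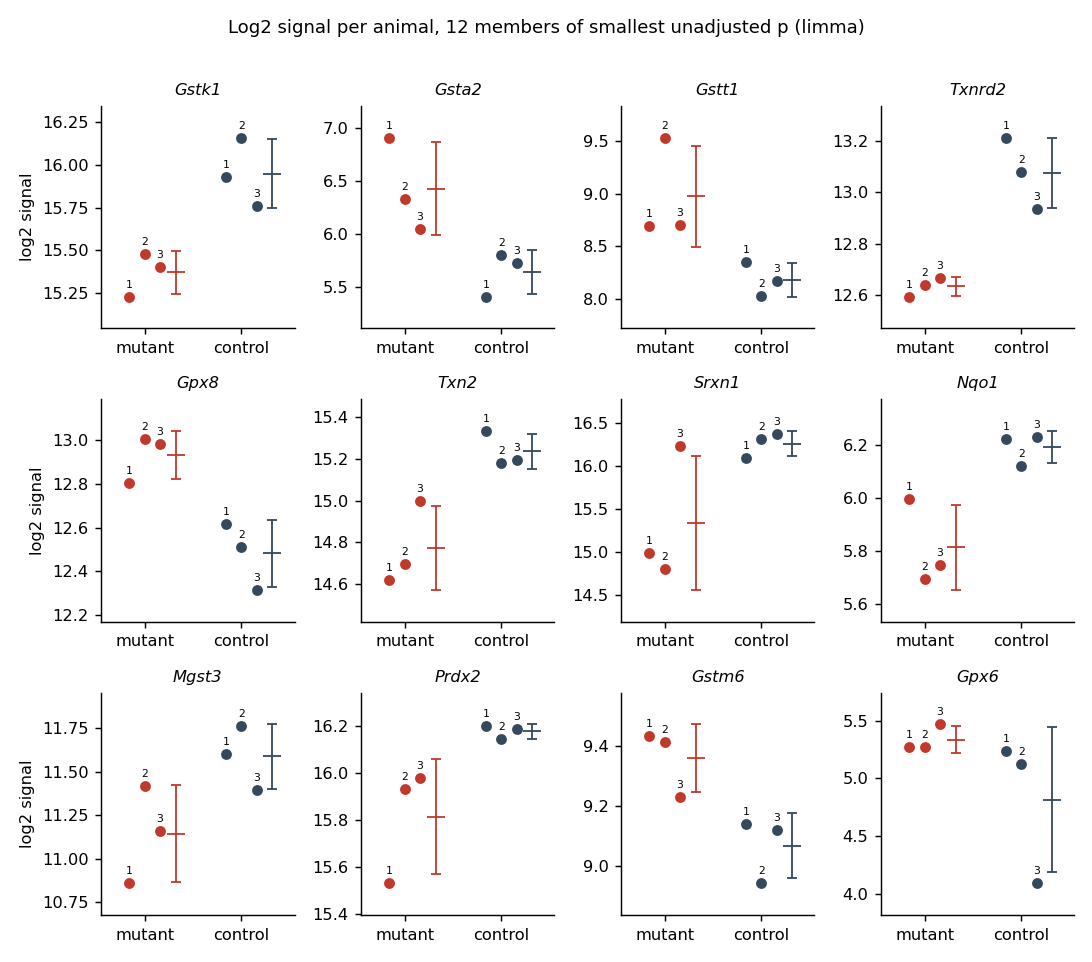
Log2 signal of each animal, numbered by replicate, for the 12 antioxidant genes of smallest unadjusted p, with mutants in red on the left and controls in dark blue on the right. Bars give mean ± SD (n = 3 each), and each panel has its own axis that does not start at 0. Srxn1 mutant 3 lies with the controls, and Txnrd2 mutants lie close together.

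Of the 8 glutathione peroxidases, 5 were above 0 and 3 below. Gpx8, a peroxidase of the endoplasmic reticulum, measured 12.81, 13.01 and 12.98 in the mutants, against 12.62, 12.51 and 12.32 in the controls. Every mutant was above every control, with a log2 change of 0.45 (95% interval 0.10 to 0.80, limma adjusted p = 0.366). Its relative Gpx7, of the same compartment, differed by 0.27 (SE 0.22), with overlapping groups. Beside Gpx8, the log2 changes of endothelial markers were above 0 in 6 of 6 cases, with list means of 12.78, 12.76 and 12.75 in the mutants and 12.42, 12.20 and 12.40 in the controls. Those of fibroblast markers were above 0 in 5 of 5 cases, with list means of 12.12, 11.83 and 11.24 in the mutants and 11.05, 10.81 and 11.34 in the controls. Their part in the Gpx8 values was not tested.

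Gpx1, the cytosolic peroxidase, measured 15.70, 16.03 and 15.88 in the mutants and 15.97, 15.83 and 15.88 in the controls (log2 change -0.03, 95% interval -0.37 to 0.32), with overlapping groups. The change was 0.029 with the fat marker mean as a covariate. Gpx2, Gpx5 and Gpx6 were not above the background range in either group, which leaves their changes without a signal told apart from background. Gpx6 measured 5.27, 5.27 and 5.47 in the mutants, against 5.24, 5.12 and 4.09 in the controls. Control 3 stood apart, and the Gpx6 change of 0.52 (SE 0.29) was 0.16 without it. Gpx3, the secreted plasma peroxidase, varied more between animals than between groups. It measured 16.43, 15.44 and 15.54 in the mutants and 15.56, 16.09 and 16.19 in the controls (log2 change -0.15, 95% interval -0.81 to 0.52, limma adjusted p = 0.906).

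Mutant 1 and control 3, the animals with the most fat marker signal, had the highest Gpx3 value of their groups. The same held for Gstz1, the zeta class enzyme of tyrosine breakdown, at 11.76, 10.87 and 10.94 in the mutants and 11.17, 11.27 and 11.54 in the controls. With the fat marker mean as a covariate the log2 change of Gpx3 was -0.40 (limma adjusted p = 0.579). Of the controls, control 3 had the lowest Gsta3 value. The part of fat in these values was not tested beyond this fit. These 3 genes were set beside the fat markers after their values were seen.

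**Figure D4:**
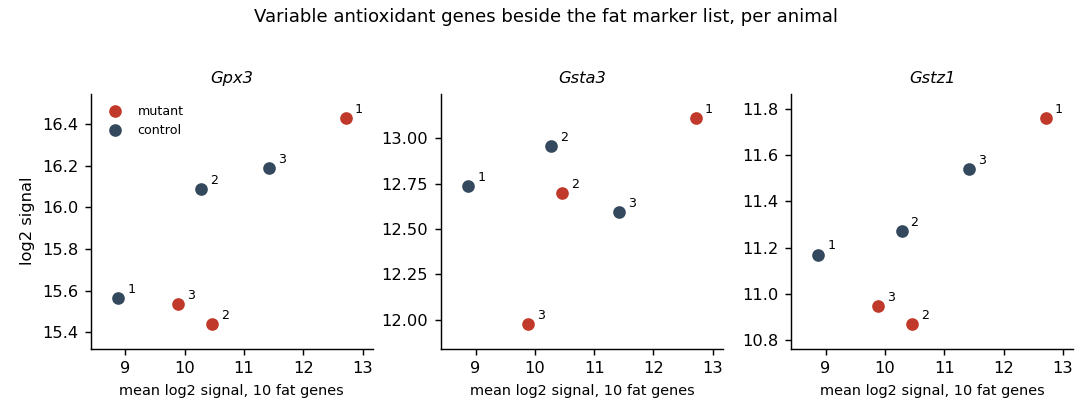
Log2 signal of Gpx3, Gsta3 and Gstz1 in each animal (vertical) against the mean log2 signal of 10 measured fat marker genes in the same animal (horizontal), with mutants in red, controls in dark blue and replicate numbers beside the points. Mutant 1, with the highest fat marker mean of 12.71, also has the highest value of all 3 genes.

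Of the peroxiredoxins outside mitochondria, Prdx2 of the cytosol measured 15.53, 15.93 and 15.98 in the mutants, against 16.20, 16.14 and 16.19 in the controls. All mutants were below the narrow range of the controls, mutant 1 by the most, with a log2 change of -0.36 (95% interval -0.74 to 0.02, limma adjusted p = 0.503) that was -0.22 without mutant 1. Prdx2 is abundant in red cells. The 2 measured erythroid markers, from 6 listed, had log2 changes of 0.60 (Alas2, SE 0.27) and -0.23 (Slc4a1, SE 0.16). The control mean of Alas2 and the mutant mean of Slc4a1 lay within the background range. Prdx1 differed by -0.09 (SE 0.14), and Prdx4 of the endoplasmic reticulum by 0.18 (SE 0.15).

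Cytosolic thioredoxin, Txn1, and its reductase, Txnrd1, differed by less than their mitochondrial counterparts, at 0.07 (95% interval -0.26 to 0.39) and -0.17 (95% interval -0.52 to 0.18). The difference between the cytosolic and mitochondrial pairs was not tested. Txnrd3, the reductase best known from testis, lay within the background range. Superoxide dismutases and catalase, which remove superoxide and hydrogen peroxide, had changes from -0.27 to 0.12. Sod1, the cytosolic copper-zinc enzyme, measured 15.50, 15.86 and 15.72 in the mutants and 16.10, 16.02 and 15.78 in the controls (log2 change -0.27, 95% interval -0.65 to 0.10, limma adjusted p = 0.629). Control 3 lay below mutant 2, so the groups overlapped, and the change was -0.18 without mutant 1. Catalase, Cat, measured 16.52, 16.58 and 16.50 in the mutants, against 16.41, 16.38 and 16.45 in the controls, apart by a log2 change of 0.12 (95% interval -0.19 to 0.43). Extracellular Sod3 differed by 0.10 (SE 0.15).

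The stress-response genes had changes of opposite sign. Nqo1, a quinone reductase widely used as a readout of NRF2, measured 6.0, 5.69 and 5.75 in the mutants, against 6.22, 6.12 and 6.23 in the controls. The groups were apart (log2 change -0.38, 95% interval -0.72 to -0.04, limma adjusted p = 0.435), but every value lay within the background range. Hmox1, which breaks down heme, measured 11.91, 12.21 and 12.77 in the mutants, against 11.91, 12.07 and 11.95 in the controls. Its change of 0.32 (95% interval -0.19 to 0.83, limma adjusted p = 0.683) was 0.52 without mutant 1 (limma adjusted p = 0.566) and 0.09 without mutant 3.

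Related genes outside the members were read from 5 lists, and 0 of their genes had a limma adjusted p under 0.05. Their counts at an unadjusted p under 0.05 are to be read beside the 5.42% of all probe sets that were higher and the 4.96% that were lower. Of 11 regulators of NRF2, 1 was higher and 0 were lower at an unadjusted p under 0.05. That gene, the small MAF factor Maff, measured 8.28, 8.52 and 8.68 in the mutants, against 7.88, 8.04 and 7.14 in the controls (log2 change 0.81, SE 0.25, limma adjusted p = 0.317). NRF2 itself, Nfe2l2, differed by -0.08 (SE 0.18) and its inhibitor Keap1 by 0.01 (SE 0.17). Of 14 measured NRF2 targets outside the members, from 16 listed, 1 was higher and 0 were lower: Ephx1, the microsomal epoxide hydrolase, at 15.87, 16.00 and 15.78 in the mutants, against 15.41, 15.32 and 15.11 in the controls (log2 change 0.61, SE 0.15, limma adjusted p = 0.232). The cystine carrier Slc7a11, within the background range in both groups, differed by -0.02 (SE 0.18).

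Of 21 measured genes of glutathione and thiol handling, from 24 listed, 2 were higher and 2 lower at an unadjusted p under 0.05. The higher ones make prostaglandins with glutathione as cofactor. Ptges, a prostaglandin E synthase, measured 11.07, 10.86 and 10.15 in the mutants, against 9.32, 9.47 and 9.23 in the controls (log2 change 1.35, SE 0.24, limma adjusted p = 0.0989). Hpgds, the prostaglandin D synthase of hematopoietic cells, was at 8.18, 7.57 and 7.52 in the mutants, against 7.36, 6.78 and 7.15 in the controls, whose mean lay within the background range (log2 change 0.66, limma adjusted p = 0.375). Macrophage markers had changes above 0 in 5 of 5 cases beside it, with list means of 10.07 to 10.61 in the mutants and 10.06 to 10.08 in the controls, and their part was not tested. The lower ones were the glutathione-degrading enzyme Chac1 (-0.52, SE 0.18, within the background range in both groups) and the mitochondrial glutaredoxin Glrx5, which serves iron-sulfur cluster assembly. Glrx5 measured 13.37, 13.64 and 13.56 in the mutants, against 13.98, 13.76 and 14.05 in the controls (log2 change -0.41, SE 0.16, limma adjusted p = 0.422).

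Selenoproteins, among them the thioredoxin reductases and several glutathione peroxidases, need a dedicated machinery to insert selenocysteine. The list for selenoprotein synthesis and transport holds that machinery together with the selenoproteins Selenop, Selenow and Selenok and the selenoprotein P receptor Lrp8. Of its 11 genes 8 were below 0, with a median log2 change of -0.19, and 1 was lower at an unadjusted p under 0.05. That was Pstk, the kinase that phosphorylates serine on the selenocysteine tRNA, at 8.19, 8.14 and 8.25 in the mutants and 8.29, 8.79 and 8.82 in the controls (log2 change -0.44, SE 0.18, limma adjusted p = 0.451). Of 13 measured oxidant-producing genes, from 15 listed, 9 were above 0, with a median of 0.08, and Maoa, a monoamine oxidase of the mitochondrial outer membrane, alone had an unadjusted p under 0.05 (log2 change 0.35, SE 0.15, limma adjusted p = 0.469).

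**Figure D5:**
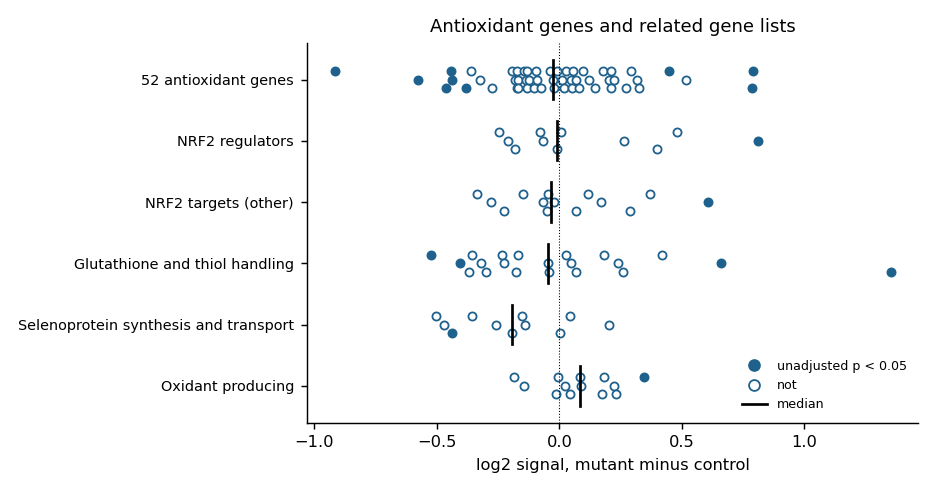
Log2 change, mutant minus control, of each gene (points, spread vertically for legibility) in the 52 antioxidant genes and in 5 lists of related genes, with the list median as a black line. Filled points have an unadjusted p under 0.05 (limma), and Ptges, in the glutathione and thiol handling list, lies farthest to the right at 1.35.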

How the data were processed

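The deposited values were log2 signals per probe set, 1 column per animal, a scale read from their range. Per the submitters' processing notes the authors used Transcriptome Analysis Console 4.0, while background correction, summarisation and normalization were not given in the sources used here. If arrays were equalised, a change common to most genes would not show. Control probe sets were removed (5222 intron, 1324 exon, 94 spike or background), which left 22206, of which 19572 had 1 gene symbol in the platform annotation, 0 several, and 2634 none. All 52 members matched an Entrez identifier in the GRCm38.p6 gene table with the same symbol.

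Mutant minus control was fitted over all 6 arrays without covariates (lmFit, then eBayes, limma 3.58.1 under R 4.3.3), and two-sided p-values were adjusted by Benjamini-Hochberg over 22206 probe sets (threshold 0.05). SE and 95% intervals come from this fit, and mean ± SD from the animals. Where a gene had several probe sets, that with the highest mean stood for it. Replicates are named as separate animals, the number of animals limits precision, and detection calls were not used. The procedure was tested on simulated data.

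Members, lists and tests were chosen with earlier results of these data known. Full values were given for the 12 members of smallest unadjusted p and for another 14 named by function, and up to 4 genes by smallest unadjusted p from each related list. Values of other members, of Nfe2l2, Keap1 and Slc7a11, and of markers were added after they were seen. Alternatives were 2 scalings, a filter on dim probe sets, another variance model, weights on arrays, a block for replicate number, leaving out each animal, averaging probe sets of a gene, and the intron control signal or fat marker mean as a covariate. Promoter letters were searched in RefSeq windows.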

Additional observations from a re-analysis of the deposited data

How the results depend on the processing

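The count of 0 members past an adjusted p of 0.05 was also 0 under every alternative run except a variance trend with a robust prior, where it was 1 (Gstk1, log2 change -0.58, limma adjusted p = 0.0483). The numbers of members at an unadjusted p under 0.05 were 8 to 11 under the alternatives that kept all animals (beside 8.7% to 15.5% of the probe sets tested) and 5 to 8 with an animal left out (beside 7.63% to 11.6%), lowest without mutant 2. Members whose groups did not overlap numbered 11 to 15 with all animals (beside 16.3% to 21.6% of the probe sets tested) and 16 to 24 with an animal left out (beside 24.1% to 30.2%), a count that rises when fewer animals are compared. The filter on dim probe sets left 44 members. Of these, 8 had an unadjusted p under 0.05 (beside 15.5%), and the groups of 11 did not overlap (beside 21.6%). The median log2 change over members was -0.06 to -0.01 with all animals, and -0.067 (without mutant 2) to -0.0037 (without mutant 1) with an animal left out. Deviations from the group mean had r = -0.09, 0.08 and -0.07 across probe sets for same-numbered animals, beside -0.10 to 0.16 for unlike numbers. With 3 animals per group, these values cannot show whether the numbers pair animals. With the replicate number as a block, 0 members passed and 8 had an unadjusted p under 0.05. Over all probe sets the 16 calls became 1 with the block or without any 1 of the controls. Without mutants 1, 2 and 3 they became 14, 6 and 15. They became 2 with the fat marker mean and 8 with the intron signal as a covariate. Under the 2 scalings they became 38 and 32, with array weights 48, with dim probe sets removed 92 and with the variance trend 175. Changes near 0 turned sign: Gsta4 (-0.010) and Gclm (-0.017) with arrays shifted to a common median, and Gpx1 (0.029) with the fat marker mean as a covariate. With an animal left out, log2 changes ranged from -0.11 to 0.059 for Gpx1, -0.15 to 0.15 for Gsta4, -0.028 to 0.068 for Gclm, -0.46 to 0.035 for Gpx3 and -0.42 to 0.14 for Gsta3. The cause was not tested. Averaging probe sets left member values as they were, since each member has 1. The 9 members within the background range have no signal told apart from background, so a change that stayed within that range would not be detectable.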
